A study of Mus musculus with 18 samples.

Results

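The annexin family was examined in cells sorted from the retinas of postnatal day 8 mice, by whether they carried green fluorescent protein (GFP). The family list held 10 genes (Anxa1 to Anxa8, Anxa10 and Anxa11), and a probe set was taken when its annotation gave exactly 1 gene symbol and that symbol was in the list. This gave 20 probe sets for 9 of the 10 genes, out of 15964 genes that had such a probe set on the arrays. The family was selected on measured differences between the 2 sorted populations in these same arrays, so its values in that comparison are given as a description and support nothing by themselves.

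GFP-positive cells (GFP-pos) and GFP-negative cells (GFP-neg) came from homozygous Tie2-GFP transgenic mice of the FVB/N strain, so the transgene was present in the animals behind both groups. In these mice the Tie2 (Tek) promoter, which is active in endothelial cells and in some blood-lineage cells, drives GFP. Retinas were pooled and dissociated with papain before sorting, and the RNA was amplified before labelling. Each population was hybridised in triplicate to each of the 3 chips (A, B and C) of the Affymetrix MGU74v2 set, which made 18 arrays. The labels do not say whether the 3 replicates were separate pools of animals, so a p-value here reflects only how these arrays scatter, and that scatter may be technical.

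Annexins are proteins that bind negatively charged phospholipids, such as phosphatidylserine, when calcium rises. They share a conserved core that docks on the membrane and differ in an amino-terminal tail that binds partners, among them S100 and EF-hand proteins. On endothelial cells and leukocytes they are known for membrane repair, vesicle traffic, control of plasminogen activation and the resolution of inflammation. The retinal vessels of the mouse are still spreading at this age.

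The sort was checked on marker lists, reading each gene by 1 probe set. Over all 15964 genes read in this way, 9.43% were called higher in GFP-pos cells and 11.3% lower by the test described below. Of 14 endothelial genes, 11 were higher in GFP-pos cells, none was lower, and Kdr, Pecam1 and Egfl7 did not pass the test. The summed intensity of the 11 endothelial genes measured on chip A was 14296 to 17050 on GFP-pos arrays, against 2035 to 3008 on GFP-neg arrays. Of 10 astrocyte and Müller glia genes, 5 were lower in GFP-pos cells, and of 7 photoreceptor genes 3 were lower. Of 8 genes of other retinal neurons, 4 were lower and 1 was higher. None of 10 pericyte and smooth muscle genes, 5 platelet genes or 3 erythroid genes passed the test. GFP-pos replicate 3 stood apart on every chip: its Spearman correlation with the other two GFP-pos arrays was 0.911 to 0.929, against 0.960 to 0.987 for the other pairs of arrays within a population.

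Values below are the deposited intensities in array units on a linear scale. No detection call came with them, so a dim value cannot be told from background hybridisation. Differences are GFP-pos minus GFP-neg on the scale of log2(intensity + 16), which understates the change of dim probe sets, and each is given with its standard error (SE). A probe set is said to be called when limma's moderated test on its whole chip gave a Benjamini-Hochberg adjusted p under 0.05. Intensities of different probe sets are not compared with each other. In sorted bulk material, more cells that express a gene and more of its RNA per cell cannot be told apart.

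Of the annexin genes, 7 had at least 1 probe set called higher in GFP-pos cells, and no annexin probe set was called lower. On chip A, 8 of 12 annexin probe sets were called higher, where 9.09% of all 12422 probe sets were called higher and 9.25% lower. On chip B the single annexin probe set was called higher, where 9.6% of 12411 probe sets were called higher and 11.3% lower. On chip C, 3 of 7 were called higher, where 3.4% of 11868 probe sets were called higher and 5.88% lower. All 3 GFP-pos arrays lay above all 3 GFP-neg arrays for 13 of the 20 probe sets, which were 8 on chip A, 1 on chip B and 4 on chip C. The share of all probe sets with such separation was 19.8% on chip A, 25.7% on chip B and 18.3% on chip C. The median log2 difference over the annexin probe sets was 1.90 on chip A and 0.26 on chip C, against 0.01 and 0.05 over all probe sets of those chips. These counts describe a family that was picked for this contrast. Anxa8 and Anxa10 had no called probe set, and Anxa11 had no probe set of its own.

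**Figure D1:**
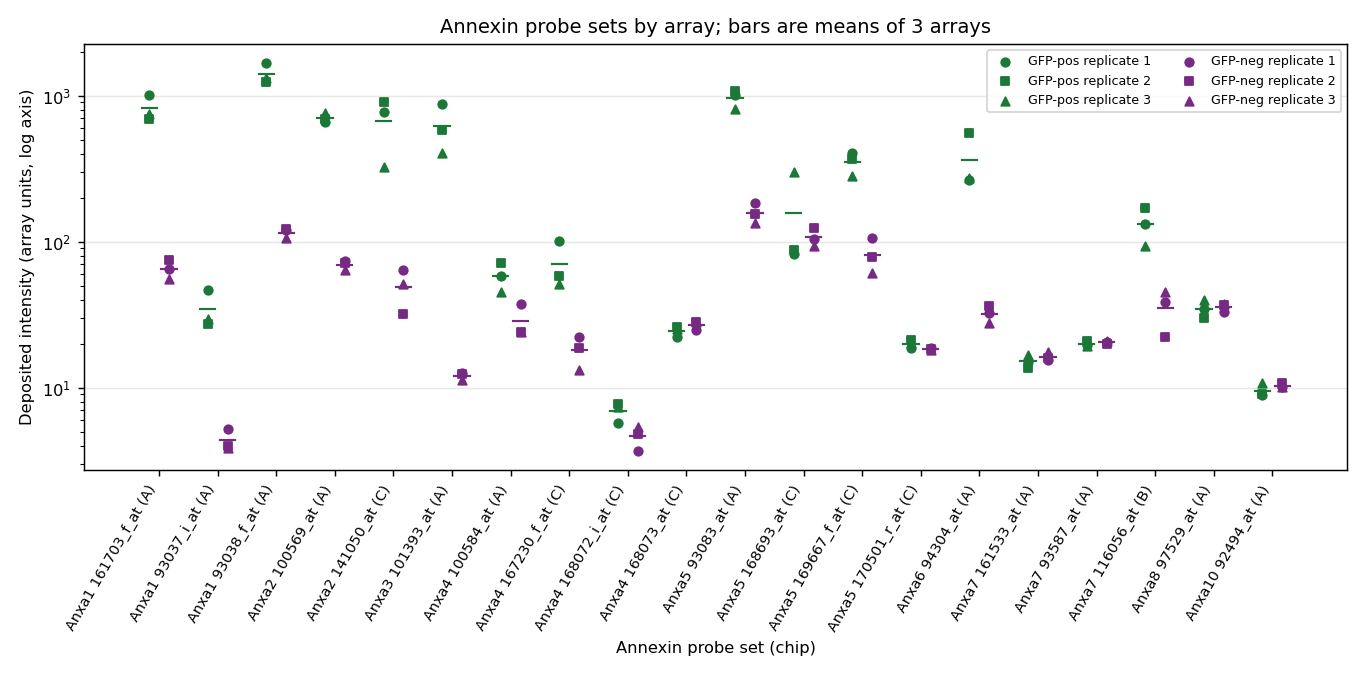
Deposited intensity (array units, log axis) of each of the 20 annexin probe sets, with the chip in brackets; green symbols are the 3 GFP-pos arrays, purple symbols the 3 GFP-neg arrays, and bars are means of 3 arrays. The widest separation is at Anxa3 (403.7 to 880.0 units in GFP-pos cells, 11.3 to 12.6 in GFP-neg cells), while the Anxa8 and Anxa10 arrays of the populations interleave.

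Promoter windows are shown for Anxa1, Anxa2 and Anxa5, the genes with a called log2 difference above 2 that had a window in the sequence table. They were chosen after the values and the sequences had been seen. The windows are RefSeq sequence of build GRCm38.p6, 300 bases from upstream of the start of the gene into its first transcribed bases, printed 5′ to 3′ on the gene's strand. They lie at chr19:20390622-20390921 (minus strand) for Anxa1, chr9:69453433-69453732 (plus strand) for Anxa2 and chr3:36475838-36476137 (minus strand) for Anxa5. Capitals mark any of 3 motifs, each searched on both strands, and no marked stretch overlaps another. The motif for a GC box, which zinc-finger factors of the Sp family bind, is spelled GGGCGG. The motif for the TATA box of the basal promoter is spelled TATAAA. The motif for an AP-1 site, which dimers of Jun and Fos bind, is spelled TGANTCA.
Anxa1: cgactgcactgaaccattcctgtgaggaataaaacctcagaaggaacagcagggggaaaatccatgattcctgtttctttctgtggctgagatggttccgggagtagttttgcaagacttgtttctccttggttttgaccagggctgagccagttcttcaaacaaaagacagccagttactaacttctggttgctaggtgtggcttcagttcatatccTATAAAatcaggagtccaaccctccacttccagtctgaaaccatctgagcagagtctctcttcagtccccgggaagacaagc
Anxa2: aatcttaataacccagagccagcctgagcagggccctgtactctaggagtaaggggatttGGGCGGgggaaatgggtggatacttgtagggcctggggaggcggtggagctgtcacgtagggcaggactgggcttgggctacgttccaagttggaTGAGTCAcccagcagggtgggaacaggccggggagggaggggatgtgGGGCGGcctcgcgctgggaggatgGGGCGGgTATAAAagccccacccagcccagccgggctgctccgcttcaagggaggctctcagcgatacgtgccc
Anxa5: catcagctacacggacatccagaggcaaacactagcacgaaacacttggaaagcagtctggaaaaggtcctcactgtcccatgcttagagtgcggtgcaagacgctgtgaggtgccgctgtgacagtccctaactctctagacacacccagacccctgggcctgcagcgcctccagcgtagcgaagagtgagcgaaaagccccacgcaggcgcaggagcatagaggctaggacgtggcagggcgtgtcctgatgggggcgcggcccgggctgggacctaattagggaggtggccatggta

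The Anxa2 window held 3 GC boxes, 1 TATA box and 1 AP-1 site. The Anxa1 window held 1 TATA box and neither of the others, and the Anxa5 window held none of the 3 motifs. Over the 10 annexin windows in the table, which covered 8 of the 10 genes, 5 held a GC box, 3 a TATA box and 2 an AP-1 site. The Anxa7 windows overlapped and both held a GC box, so that gene was counted more than once. Among all 32851 promoter windows of the same length, 35.7% held a GC box, 13.6% a TATA box and 7.81% an AP-1 site. A CCAAT box (CCAAT) was in none of the 10 annexin windows and in 37.4% of all windows. The letters ACAAAG, a SOX site, were in 1 annexin window and in 18.7% of all windows, and the ETS core GGAAG was in 3 annexin windows and in 71.4% of all windows. A match here is only a match of letters. Anxa3 and Anxa6 are the genes without a window.

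Annexin A1 is the glucocorticoid-induced annexin that acts on formyl peptide receptors and limits leukocyte recruitment. Its 3 probe sets, all on chip A, were called higher in GFP-pos cells. Probe set 93038_f_at read 1663, 1235 and 1321 units on the GFP-pos arrays, against 119.6, 121.2 and 105.0 on the GFP-neg arrays. Every GFP-pos array was thus far above every GFP-neg array, with means of 1406 ± 227 and 115 ± 8.88 units (SD, n = 3 each) and a log2 difference of 3.43 (SE 0.13). Probe set 161703_f_at read 1009, 691 and 751 units on the GFP-pos arrays, against 65.0, 74.6 and 55.5 on the GFP-neg arrays, a log2 difference of 3.35 (SE 0.17). These 2 probe sets thus gave nearly the same difference and the same order of GFP-pos arrays, with replicate 1 highest. The dim probe set 93037_i_at read 46.6, 27.3 and 29.5 units on the GFP-pos arrays, against 5.2, 4.01 and 3.86 on the GFP-neg arrays. Its log2 difference was 1.29 (SE 0.15), and it was 2.70 with a pseudocount of 1 and 0.52 with a pseudocount of 64.

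Annexin A2 forms a complex with S100A10 that binds tissue plasminogen activator and plasminogen at the endothelial surface. On chip A, probe set 100569_at read 662, 694 and 760.0 units on the GFP-pos arrays, against 73.1, 71.7 and 64 on the GFP-neg arrays. The arrays of a population lay close together, at 706 ± 49.8 and 69.6 ± 4.89 units (SD, n = 3 each), a 10.1-fold ratio of means and a log2 difference of 3.07 (SE 0.08). This was the smallest SE among the called annexin probe sets. On chip C, probe set 141050_at read 769, 909 and 324 units on the GFP-pos arrays, against 63.5, 32.1 and 51.3 on the GFP-neg arrays. It was called higher too, by 3.30 on the log2 scale (SE 0.41), with GFP-pos replicate 3 well below the other GFP-pos arrays. Without that replicate its difference was 3.74.

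Annexin A3 is an annexin abundant in myeloid cells and known to inhibit phospholipase A2 in vitro. Its 1 probe set, 101393_at on chip A, had the largest difference in the family. It read 880.0, 584 and 404 units on the GFP-pos arrays, against 12.6, 12.4 and 11.3 on the GFP-neg arrays. The GFP-neg arrays were uniformly dim and the GFP-pos arrays spread over a factor of more than 2. The means were 623 ± 240.5 and 12.1 ± 0.67 units (SD, n = 3 each), and the log2 difference was 4.44 (SE 0.27). Because the GFP-neg values lay under the pseudocount, the log2 difference was 5.50 with a pseudocount of 1 and 3.11 with a pseudocount of 64.

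Annexin A5 binds exposed phosphatidylserine, forms lattices on the membrane and covers surfaces that would otherwise start clotting. On chip A, probe set 93083_at read 1016, 1072 and 815 units on the GFP-pos arrays, against 185, 154 and 134 on the GFP-neg arrays. The populations were well apart, with a log2 difference of 2.50 (SE 0.15) that was called higher. On chip C, probe set 169667_f_at read 406, 370.3 and 282 units on the GFP-pos arrays, against 105, 78.4 and 60.9 on the GFP-neg arrays, and was called higher by 1.93 (SE 0.20). The other two Anxa5 probe sets on chip C were not called. Probe set 168693_at read 81.8, 87.6 and 299 units on the GFP-pos arrays, against 104, 125 and 93.5 on the GFP-neg arrays. GFP-pos replicate 3 alone lay above the GFP-neg arrays. The difference was 0.26 (SE 0.46), and without that replicate it was -0.29. Probe set 170501_r_at read 18.7 to 21.0 units in GFP-pos cells and 18.0 to 18.8 in GFP-neg cells, with overlapping arrays and a difference of 0.07 (SE 0.06).

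Annexin A6 is the largest annexin, with an extra copy of the core, and links membranes to cholesterol transport and to the Ras regulator encoded by Rasa1. Its 1 probe set, 94304_at on chip A, read 263, 553 and 272 units on the GFP-pos arrays, against 32.4, 36.3 and 27.7 on the GFP-neg arrays. All GFP-pos arrays were above all GFP-neg arrays, and GFP-pos replicate 2 was about 2 times the other two. The log2 difference was 2.90 (SE 0.29), which was called higher. Rasa1 itself was not called, at 109 ± 58.6 units in GFP-pos cells and 74.6 ± 24.9 in GFP-neg cells (SD, n = 3 each).

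Annexin A4, best known from epithelia, where it aggregates membranes and dampens ion channels, had 4 probe sets that did not give the same call. On chip A, 100584_at read 58.1, 71.3 and 45.4 units on the GFP-pos arrays, against 37.5, 23.9 and 24.1 on the GFP-neg arrays, and was called higher by 0.74 (SE 0.18). On chip C, 167230_f_at read 101, 57.9 and 51.5 units on the GFP-pos arrays, against 22.2, 18.7 and 13.2 on the GFP-neg arrays, and was called higher by 1.30 (SE 0.23). Neither call held under the removal of every single array. The first was lost without GFP-pos replicate 1 (0.73), GFP-pos replicate 2 (0.61), GFP-neg replicate 2 (0.67) or GFP-neg replicate 3 (0.67). The other was lost without GFP-pos replicate 2 (1.39), GFP-neg replicate 1 (1.39), GFP-neg replicate 2 (1.32) or GFP-neg replicate 3 (1.2). These calls were lost while the differences stayed positive, at 0.61 to 0.73 against 0.74 and at 1.2 to 1.39 against 1.30. The remaining Anxa4 probe sets were dim and not called. Probe set 168072_i_at read 5.73 to 7.73 units in GFP-pos cells and 3.69 to 5.34 in GFP-neg cells, a difference of 0.15 (SE 0.07) with no overlap. Probe set 168073_at read 22.4 to 25.9 units in GFP-pos cells and 24.8 to 28.4 in GFP-neg cells, a difference of -0.09 (SE 0.07).

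Annexin A7, or synexin, promotes fusion of secretory granules and binds sorcin. Its probe set on chip B, 116056_at, read 131, 169 and 93.8 units on the GFP-pos arrays, against 38.4, 22.1 and 45.0 on the GFP-neg arrays. The arrays did not overlap, and it was called higher by 1.52 (SE 0.24). Both probe sets on chip A were dim and flat. Probe set 161533_at read 13.7 to 16.8 units in GFP-pos cells and 15.4 to 17.5 in GFP-neg cells (log2 difference -0.05), and 93587_at read 19.2 to 20.7 and 19.8 to 20.8 units (log2 difference -0.02).

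Annexin A8, which in human endothelial cells helps to keep the storage granules of P-selectin supplied with CD63, had 1 probe set. It read 34.5, 30.0 and 39.8 units on the GFP-pos arrays, against 33.1, 37.0 and 37.5 on the GFP-neg arrays. The populations interleaved, with a log2 difference of -0.03 (SE 0.09, 95% confidence interval -0.26 to 0.20). Annexin A10, a gastric epithelial annexin, read 8.90, 9.02 and 10.7 units on the GFP-pos arrays, against 10.1, 10.8 and 10.1 on the GFP-neg arrays. Its difference was -0.05 (SE 0.07, 95% confidence interval -0.21 to 0.11). Annexin A11, which binds the EF-hand protein PDCD6 and S100A6, was represented by 1 probe set that also carried other gene symbols, and no value is given for it.

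**Figure D2:**
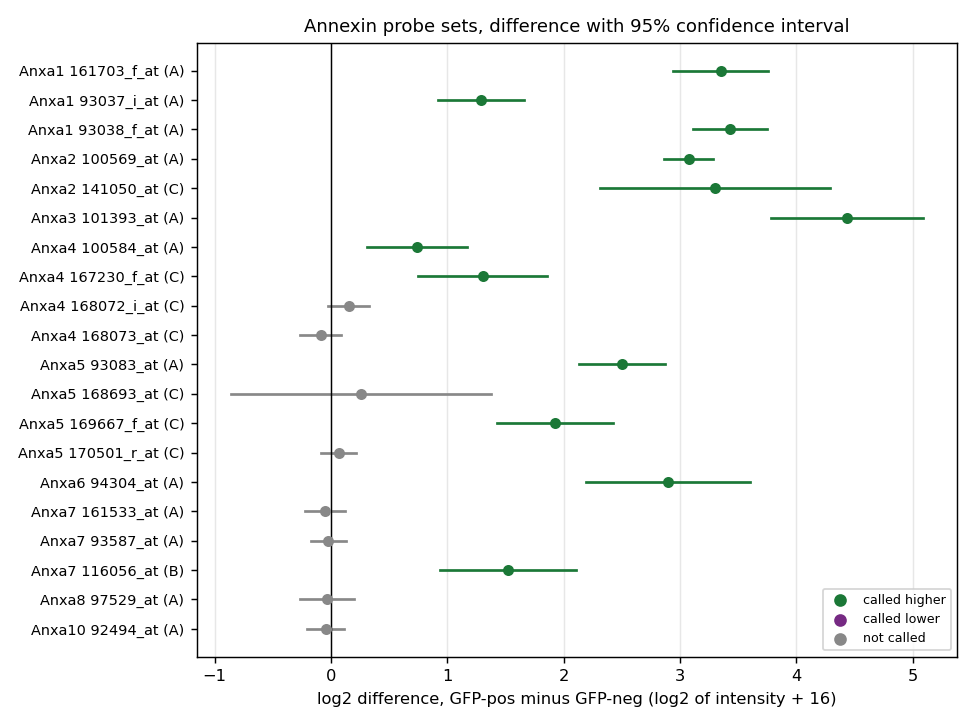
Log2 difference, GFP-pos minus GFP-neg on the scale of log2(intensity + 16), of the 20 annexin probe sets with 95% confidence intervals; green points were called higher and grey points were not called. The 12 called probe sets run from 0.74 (Anxa4, chip A) to 4.44 (Anxa3), and the 8 others lie between -0.09 and 0.26.

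Several probe sets were present for 5 annexin genes, and for 3 of them, Anxa4, Anxa5 and Anxa7, the probe sets differed in call. Of the 20, 7 carry a further letter (f, i or r) before _at in the identifier, among them all 3 for Anxa1. The letter f marks a possible match to several transcripts. Without those 7, 5 probe sets on chip A and 1 on chip C were called higher.

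The GFP-pos arrays also varied among themselves. Of the 12 called annexin probe sets, GFP-pos replicate 3 was the lowest GFP-pos array in 7 and the highest in 1, which was Anxa2 100569_at. Replicate 1 was the highest in 6 and the lowest in 2, and replicate 2 was the highest in 5 and the lowest in 3. The coefficient of variation over the 3 GFP-pos arrays of these 12 probe sets ran from 7.06% for Anxa2 100569_at to 45.7% for Anxa2 141050_at on the other chip. When GFP-pos replicate 3 was left out, 12 of the same 12 probe sets were called higher and no other was added.

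**Figure D3:**
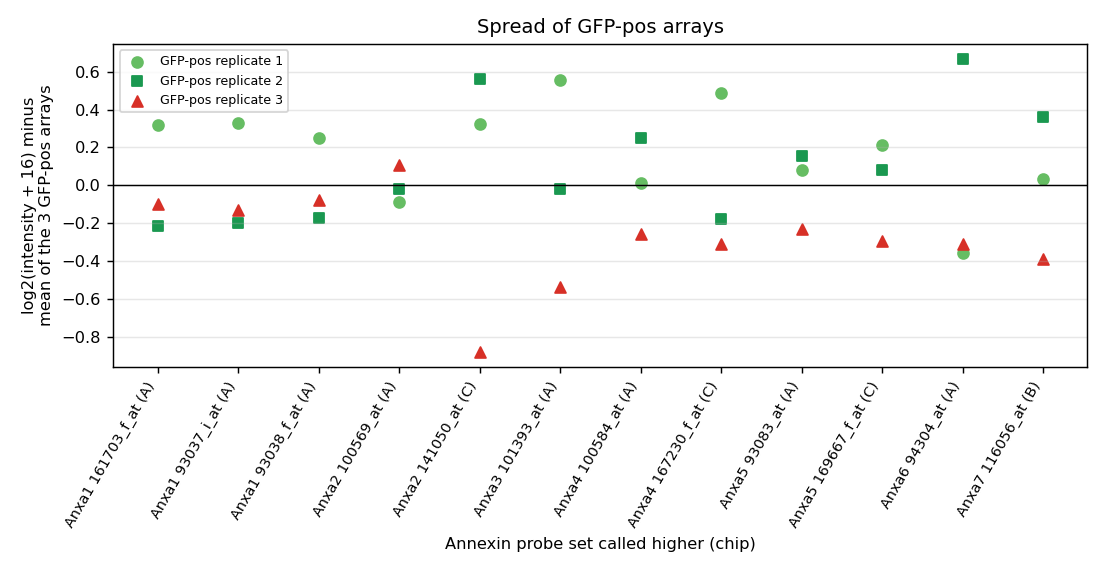
Deviation of each GFP-pos array from the mean of the 3 GFP-pos arrays on the scale of log2(intensity + 16), for the 12 annexin probe sets called higher; light green circles are replicate 1, dark green squares replicate 2 and red triangles replicate 3. Replicate 3 is the lowest array in 7 of the 12 probe sets and lies furthest below the others at Anxa2 on chip C.

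Because several annexins are abundant in leukocytes and Tie2 is active in some of them, microglia and macrophage markers were read on the same arrays. Of 18 such genes, 4 were called higher in GFP-pos cells (Lcp1, Laptm5, Fcer1g and C1qb) and none lower, where 9.43% of all genes were called higher and 11.3% lower. Their summed intensity was 1908 to 3049 units on GFP-pos arrays, against 687 to 730 on GFP-neg arrays, and none of the 18 was at 0 on any array. Lcp1, an actin-bundling protein, read 1047 ± 194 units in GFP-pos cells and 20.1 ± 4.94 in GFP-neg cells (SD, n = 3 each). Csf1r, the receptor that microglia depend on, read 37.3, 41.2 and 930 units on the GFP-pos arrays, against 94.3, 112 and 108 on the GFP-neg arrays. Without Lcp1 and Csf1r, which were set aside after their values were seen, the sum was 851 to 1034 units on GFP-pos arrays, against 563 to 616 on GFP-neg arrays. In that sum Fcer1g averaged 219 ± 130 units in GFP-pos cells and 59.4 ± 1.75 in GFP-neg cells (SD, n = 3 each). Laptm5 averaged 155 ± 27.0 units in GFP-pos cells and 41.5 ± 1.77 in GFP-neg cells. Apart from these and C1qb, no gene in that sum was called. The pan-leukocyte gene Ptprc and the microglial genes Aif1, Cx3cr1, Itgam and Tyrobp were not called. The part of these cells in the annexin values was not tested.

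Annexin partners and related genes were read from 6 lists, by the brightest probe set of each gene. Of 41 measured genes, 10 were called higher in GFP-pos cells and 5 lower, with a median log2 difference of 0.24. Among the 41 were 15 other calcium-dependent phospholipid-binding proteins, listed for that property and not as partners. They held 5 of the higher and 2 of the lower calls. Over all 15964 genes read in this way, 9.43% were called higher and 11.3% lower, and the median difference was 0.04. The lists were drawn up with earlier results of these data known. In each list the called genes are described, with the uncalled gene of highest mean intensity, a rule that only picks which gene to name.

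Of the 6 measured S100 partners, 1 was called higher and 1 lower. S100a13, which takes part in the release of growth factors that lack a signal peptide, read 322, 338 and 217 units on the GFP-pos arrays, against 71.9, 70.0 and 61.9 on the GFP-neg arrays. Its log2 difference was 1.85 (SE 0.17, limma adjusted p = 0.00115). S100a1, a calcium sensor of muscle and neurons, read 39.0 ± 7.0 units in GFP-pos cells and 60.5 ± 8.24 in GFP-neg cells (SD, n = 3 each), a difference of -0.48 (SE 0.13, limma adjusted p = 0.0486). The S100a1 call was lost without GFP-pos replicate 1 (-0.42), GFP-pos replicate 2 (-0.43), GFP-neg replicate 1 (-0.39), GFP-neg replicate 2 (-0.51) or GFP-neg replicate 3 (-0.53). The other S100a1 probe sets, also on chip A, differed in the opposite direction, by 0.03 and 0.12, and were not called. S100a10, the partner of annexin A2, read 176, 121 and 75.3 units on the GFP-pos arrays, against 77.1, 38.0 and 34.0 on the GFP-neg arrays. The arrays of the populations overlapped and it was not called (log2 difference 1.08, SE 0.35, limma adjusted p = 0.0894). It passed the test without GFP-pos replicate 3, with a difference of 1.36 and an adjusted p of 0.0278, and also with array weights, with an adjusted p of 0.0198. Its other two probe sets differed by 0.17 and 0.31 and were not called.

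Of 9 listed penta-EF-hand and ESCRT genes, 1 was called higher and 2 lower. Whether each of them binds an annexin was not checked. Sri encodes sorcin, the calcium sensor that binds annexin A7, and read 593 ± 151 units in GFP-pos cells and 209 ± 48.7 in GFP-neg cells (SD, n = 3 each; log2 difference 1.43, SE 0.23, limma adjusted p = 0.00899). Gca, or grancalcin, a penta-EF-hand protein of granulocytes, read 7.24, 6.75 and 7.44 units on the GFP-pos arrays, against 174, 105 and 94.8 on the GFP-neg arrays, a difference of -2.56 (SE 0.20, limma adjusted p = 0.00031). Chmp4b, an ESCRT-III subunit used in membrane repair, read 674 ± 105 units in GFP-pos cells and 1463 ± 72.4 in GFP-neg cells (SD, n = 3 each), a difference of -1.11 (SE 0.12, limma adjusted p = 0.00231). Another Chmp4b probe set on the same chip was called in the opposite direction, by 0.28, and a further one differed by -0.07 and was not called. Capn2, the large subunit of m-calpain, was not called, at 203 ± 38.7 units in GFP-pos cells and 149 ± 26.7 in GFP-neg cells (SD, n = 3 each). It passed the test without GFP-pos replicate 3, with a difference of 0.55 and an adjusted p of 0.0436.

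Of 5 measured genes for membrane repair and the scaffold of the annexin A2 complex, 2 were called higher and none lower. Dysf encodes dysferlin, a repair protein that interacts with annexins A1 and A2 in muscle. It read 1931, 1967 and 932 units on the GFP-pos arrays, against 59.8, 54.3 and 63.3 on the GFP-neg arrays, a log2 difference of 4.36 (SE 0.29, limma adjusted p = 0.000147). A further Dysf probe set on chip B was called higher by 3.05, and 1 on chip C differed by 0.20 and was not called. Ahnak, the large scaffold that binds S100A10 with annexin A2, read 1174, 860 and 361 units on the GFP-pos arrays, against 30.8, 26.6 and 28.4 on the GFP-neg arrays. Its difference was 4.04 (SE 0.41, limma adjusted p = 0.00163), while its probe sets on chip C differed by 0.23 and -0.11 and were not called. As for Anxa2 on chip C and Anxa3, GFP-pos replicate 3 was the lowest GFP-pos array for Ahnak and Dysf. For Anxa2 on chip A that replicate was the highest instead, and it stood apart from the other GFP-pos arrays on every chip. Myof, the myoferlin gene, was not called (log2 difference -0.79, SE 0.23, limma adjusted p = 0.0565). Otof, the gene of otoferlin, the ferlin of inner hair cell synapses, was not called, at 362 ± 44.6 units in GFP-pos cells and 324 ± 15.0 in GFP-neg cells (SD, n = 3 each), but it passed with array weights (difference 0.24, adjusted p = 0.03).

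Of the annexin A1 receptors only Fpr2 was measured, and it was dim, at 18.0 ± 4.01 units in GFP-pos cells and 11.4 ± 1.17 in GFP-neg cells (SD, n = 3 each). It was not called (log2 difference 0.30, SE 0.11, limma adjusted p = 0.109), but it passed the test without GFP-pos replicate 3, with a difference of 0.40 and an adjusted p of 0.0177. Of 5 measured genes of the plasminogen system, 1 was called higher. Plaur, the urokinase receptor, read 41.6, 61.2 and 67.5 units on the GFP-pos arrays, against 30.7, 35.1 and 29.1 on the GFP-neg arrays (log2 difference 0.60, SE 0.15, limma adjusted p = 0.0456). This call was lost without GFP-pos replicate 2 (0.54), GFP-pos replicate 3 (0.49), GFP-neg replicate 1 (0.58), GFP-neg replicate 2 (0.65) or GFP-neg replicate 3 (0.56). Plat, the tissue plasminogen activator that the annexin A2 complex binds, read 349, 417 and 957 units on the GFP-pos arrays, against 251, 227 and 223 on the GFP-neg arrays. Its arrays did not overlap, yet it was not called (log2 difference 1.10, SE 0.36, limma adjusted p = 0.0964). Without GFP-pos replicate 3 the Plat difference was 0.67 with an adjusted p of 0.00833.

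Of 15 other calcium-dependent phospholipid-binding proteins, 5 were called higher and 2 lower. Cpne8, a copine, read 195, 205 and 167 units on the GFP-pos arrays, against 18.4, 9.45 and 7.67 on the GFP-neg arrays (log2 difference 2.90, SE 0.16, limma adjusted p = 0.000295). The other Cpne8 probe sets, also on chip C, were dim, differed by 0.35 and -0.19 and were not called. Esyt1, an extended synaptotagmin that tethers the endoplasmic reticulum to the plasma membrane, read 331 ± 30.0 units in GFP-pos cells and 81.7 ± 2.02 in GFP-neg cells (SD, n = 3 each; difference 1.83). Prkca, protein kinase C alpha, which marks rod bipolar cells in the retina, read 34.4, 60.7 and 26.3 units on the GFP-pos arrays, against 493, 739 and 1053 on the GFP-neg arrays. Its difference was -3.77 (SE 0.33), and a chip B probe set gave -3.80. Syt1, the calcium sensor of synaptic vesicles, was called lower with a difference of -0.84 on chip A, where it was dim. On chip B a Syt1 probe set averaged 60.7 ± 53.5 units in GFP-pos cells and 924 ± 244 in GFP-neg cells (SD, n = 3 each) and was called lower with a difference of -3.80, while another differed by -0.44 and was not called. The remaining called copines moved less, with differences of 0.39 for Cpne5, 0.88 for Cpne6 and 0.41 for Cpne7. A further probe set on chip C differed by 0.08 for Cpne6 and by -0.03 for Cpne7, and neither was called. Leaving out single arrays, among other changes of processing, ended each of those 3 calls. For Cpne5 these were GFP-pos replicates 1 (0.41) and 2 (0.36) and GFP-neg replicates 1 (0.39), 2 (0.38) and 3 (0.40). For Cpne6 these were GFP-pos replicate 1 (0.94) and GFP-neg replicates 1 (0.85), 2 (0.96) and 3 (0.84). For Cpne7 these were GFP-pos replicates 1 (0.45) and 2 (0.35) and GFP-neg replicates 1 (0.40), 2 (0.41) and 3 (0.41). Esyt2, another extended synaptotagmin, was not called, at 281 ± 39.1 units in GFP-pos cells and 233 ± 32.6 in GFP-neg cells (SD, n = 3 each).

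**Figure D4:**
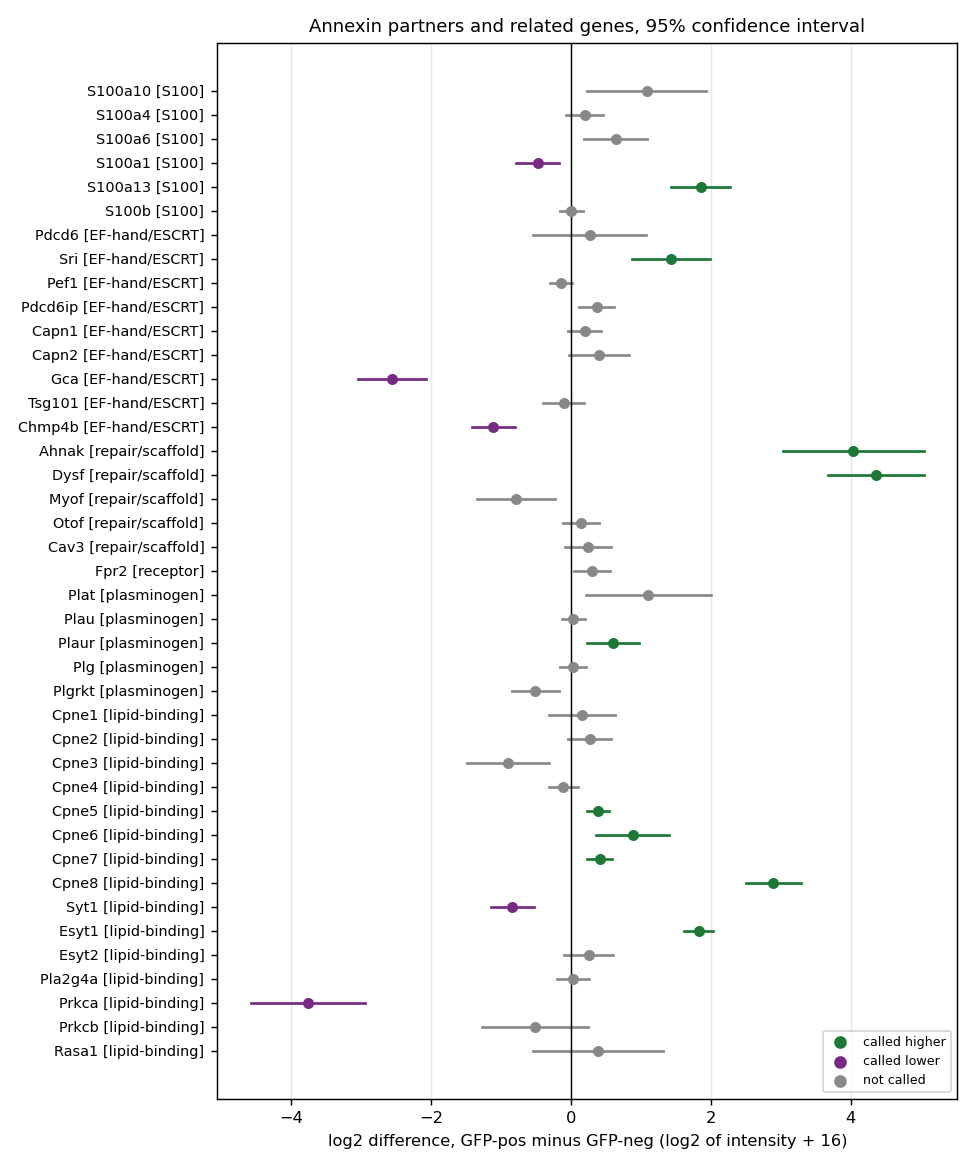
Log2 difference, GFP-pos minus GFP-neg on the scale of log2(intensity + 16), of the 41 measured annexin partners and related genes with 95% confidence intervals; green points were called higher, purple points lower and grey points were not called, and brackets give the list. Dysf (4.36) and Ahnak (4.04) lie furthest to the right and Prkca (-3.77) furthest to the left.

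The named partner and related genes had 31 further probe sets for 16 of them, and 21 of these, in 11 genes, had another call than the probe set used. Among them were 3 of the 4 further probe sets of S100a13, all 3 of Sri and all 3 of Esyt1.

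The genes whose pattern over the 6 chip A arrays was nearest to Anxa3 101393_at were Slc39a8, Lamb1 and Igfbp3, out of 10821 compared. Their Euclidean distances, after each probe set was centred on its own mean, were 0.27, 0.31 and 0.52 on the log2 scale. Slc39a8, a zinc and manganese transporter, read 1144, 968 and 584 units on the GFP-pos arrays, against 23.4, 24.8 and 26.6 on the GFP-neg arrays. It shared with Anxa3 the order of the GFP-pos arrays and uniformly low GFP-neg arrays. Lamb1, a laminin chain, read 956, 624 and 488 units on the GFP-pos arrays, against 23.6, 16.7 and 14.6 on the GFP-neg arrays. For the annexin probe set with the most negative difference, Anxa4 168073_at on chip C, the nearest of 7710 compared were Lss, Knstrn and Gm34979 at distances of 0.05, 0.06 and 0.06. These were dim probe sets with flat values, between 3.96 and 20.4 units. The arrays are shared by all genes compared, so these distances are descriptions.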

How the data were processed

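Affymetrix MGU74v2 A, B and C arrays were hybridised with amplified RNA of GFP-pos and GFP-neg retinal cells, 3 arrays per population and chip, per the labels' protocols. Each deposited value is an intensity on a linear scale, 1 for every probe set and array. The authors' probe summary, background correction and normalization are steps not given in the sources used here. The number of arrays limits the precision. Array medians were 43.3 to 44.5, 40.7 to 44.6 and 32.5 to 34.4 units on chips A, B and C. Here log2(intensity + 16) was tested on each chip alone, without filter or covariate, with the two-sided moderated test of limma 3.58.1 (R 4.3.3). The threshold was a Benjamini-Hochberg adjusted p of 0.05 over the whole chip. The script was tested on simulated data. Probe sets were named through GEO's platform annotation. A gene of a list was read by its brightest probe set, from chip A if it was there, otherwise from chip B and then C. Of each list, called members and the brightest member not called were named. Members, lists and tests were chosen with earlier results of these data known. Normalization, pseudocount, filter, variance model, adjustment, removal of probe sets with a further suffix letter, array weights, a replicate block and left-out arrays were tried as alternatives. Promoter windows are RefSeq sequence.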

Additional observations from a re-analysis of the deposited data

How the results depend on the processing

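Over 16 alternatives, no annexin probe set was called lower on any chip. Without the probe sets that carry a further letter before _at, 5 were called higher on chip A and 1 on chip C. With all it was 8 and 3, because fewer probe sets remained without them. Leaving out each array in turn gave 7 to 8 called higher for chip A, 1 to 1 for chip B and 2 to 3 for chip C, with 0 to 0 called lower on each. Every call lost in those repeats was one of the Anxa4 probe sets 100584_at and 167230_f_at, which were also lost with a pseudocount of 64 (10 of 20 called). A pair of uncalled probe sets changed sign. Anxa5 168693_at was -0.23 with array weights and ran from -0.29 (without GFP-pos replicate 3) to 0.56 (without GFP-pos replicate 1) when arrays were left out. Anxa8 97529_at ran from -0.10 (without GFP-pos replicate 3) to 0.035 (without GFP-pos replicate 2). The cause was not tested. A pseudocount of 1 moved the median of all chip B probe sets to 0.14, against which the annexin on that chip stood at 1.89.

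Of the partner and related genes, only the called ones and the uncalled gene of highest mean intensity in each list were followed over the alternatives. The other uncalled genes, Myof among them, were not. Among the genes followed, array weights added calls for S100a10 (adjusted p 0.0198), Capn2 (0.0337), Otof (0.03), Fpr2 (0.0111) and Plat (0.0175). With limma-trend and robust eBayes the adjusted p was 0.137 for Cpne5 and 0.0734 for Cpne7, and with a pseudocount of 1 it was 0.0598 and 0.0502, so those calls were lost. A pseudocount of 64 ended the calls of Cpne6 (0.0596), Plaur (0.0663) and S100a1 (0.0607). The S100a1 call was also lost with adjustment over the 3 chips (0.0532) and with only brighter probe sets (0.053).

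With the replicate number as a replicate block, 11 of 20 annexin probe sets were called higher, 7 of them on chip A, and Anxa4 100584_at was lost. Among the partner and related genes that were followed, the block added S100a10 (adjusted p 0.0137). It ended the calls of Cpne5 (0.0836), Cpne7 (0.0836), Plaur (0.0762) and S100a1 (0.129). The labels do not say whether the numbers pair the samples. Deviations of same-numbered arrays correlated at 0.29, -0.27 and -0.14 for chip A and 0.26, -0.31 and -0.13 for chip B. For chip C the values were 0.18, -0.37 and -0.30. With 3 arrays per population, and GFP-pos replicate 3 standing apart, these values cannot decide whether the samples were paired. With no detection call, values near background could not be marked.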

Other observations

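Anxa9 and Anxa13, outside the list of 10 genes, had a probe set each on chip B. Anxa9 read 60.5, 58.8 and 77.1 units on the GFP-pos arrays, against 48.1, 62.1 and 55.7 on the GFP-neg arrays, with overlapping arrays and a log2 difference of 0.19 (SE 0.13). Anxa13 read 32.7, 27.9 and 24.9 units on the GFP-pos arrays, against 24.9, 25.2 and 28.0 on the GFP-neg arrays, with a log2 difference of 0.08 (SE 0.10). Neither was called by limma at a Benjamini-Hochberg adjusted p under 0.05.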
